A study of Danio rerio with 12 samples.

Results

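The levels of 6 genes of the SCF ubiquitin ligase were followed in the zebrafish pineal gland through 48 h of constant darkness: the F-box genes fbxo25 and fbxl3a, the cullin genes cul1b and cul1a, and the shared subunit genes skp1 and rbx1. They are represented by 7 of the 15502 probe sets of the array, with 2 for fbxo25 and 1 for each other gene (6 of 8793 genes with a symbol), and all 7 passed the filter on low values that 11625 probe sets passed. The genes fbxo25, fbxl3a and cul1b were chosen by their 24-h rhythm in these same arrays, and skp1, rbx1 and cul1a as partners without one. The size of that rhythm is therefore given below as a description, with no test.

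The glands came from Tg(aanat2:EGFP)Y8 adults of both sexes, aged 0.5 to 1.5 years, a line in which the aanat2 regulatory region drives a green fluorescent protein in the gland so that it can be dissected by its fluorescence. The fish had been raised in a cycle of 12 h light and 12 h dark and were moved to constant darkness, untreated otherwise, before collection. Each of the 12 Affymetrix arrays held RNA from a pool of 12 glands, and the pools were taken every 4 h at circadian times (CT) 14, 18, 22, 2, 6 and 10 of a first and of a second daily cycle. Every circadian time thus has 2 arrays, 1 per cycle, whose spread joins differences between pools, days and hybridizations. Since a pool is bulk tissue, fewer cells of a type and less RNA per cell cannot be told apart.

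An SCF ligase is assembled from a cullin scaffold, the RING protein Rbx1 that recruits the ubiquitin-charged E2 enzyme, the adaptor Skp1 and 1 of many exchangeable F-box proteins, which bind the substrate. The cullin is switched on by attachment of the ubiquitin-like protein NEDD8 and switched off when the COP9 signalosome removes it. In mammals FBXO25 is a nuclear relative of the muscle F-box protein FBXO32. Cul1 is the cullin of SCF ligases, and zebrafish carry it as the pair of genes cul1a and cul1b.

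The arrays carried transcripts that mark the pineal gland, with 9 of 10 marker probe sets past the filter. Of these, tph2, crx, exorh, aanat2, opn1lw1, gnat1 and gnat2 lay between the 77.9 and the 99.5 percentile of all probe sets by mean intensity. The gene otx5 lay at the 69.5 percentile. Pairs of arrays correlated with Pearson's r between 0.83 and 0.93 over all probe sets. The array of CT6 of the second cycle stood apart: 16 of 18 skin, 11 of 13 bone and connective tissue and 9 of 9 immune marker probe sets had their highest value there. These are the markers past the filter, from lists of 20, 14 and 13 probe sets. The filter keeps a probe set by its highest array, so a marker could pass through this array alone. The counts are therefore a description. Summed skin marker intensity was 35738 on that array against 1723 to 15401 on the other 11, and summed bone and connective marker intensity was 22683 against 1651 to 11535. Summed pineal marker intensity was lowest there, at 12762 against 14501 to 24168, as were the sums of neuron, glia and erythrocyte markers. By mean log2 the pineal markers stood at -0.50 there against -0.55 to 0.56, and 3 of the 9 pineal probe sets were themselves called rhythmic. The last 4 arrays also had brighter hybridization controls, at 837 to 1314 against 515 to 728 on the 8 before. The values of the members with and without these arrays are given below.

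The F-box gene fbxo25 was high in the subjective night and low in the subjective day of both cycles. Its brighter probe set, Dr.25520.1.A1_at, had normalized intensities of 413, 455, 244, 211, 158 and 216 in order of sampling from CT14 to CT10 of the first cycle. In the second cycle the values at the same times were 392, 366, 307, 196, 158 and 194. The 6 arrays of CT14 to CT22 lay between 244 and 455 and the 6 of CT2 to CT10 between 158 and 216. This split into night and day was made after the values were seen. For a probe set chosen for its 24-h rhythm, the lack of overlap follows largely from that choice. The mean night over day ratio was 1.85 in the first cycle and 1.94 in the second. A fitted 24-h cosine had a peak over trough of 2.68-fold (95% interval 2.01 to 3.57), with the peak at CT 17.1 ± 0.52 h (SE, n = 12 arrays). Since this probe set was chosen for its 24-h rhythm, the fold may be too large and the interval and SE too narrow. The interval is therefore no test of a rhythm, and the same holds for the other chosen genes below. The lowest level came at CT6 in both cycles, with a mean of 158 ± 0.173 (SD, n = 2).

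The second probe set of fbxo25, Dr.16139.1.S1_at, did not show that course. It was dim, with a lowest, median and highest value of 14.4, 26.0 and 74.9, and its highest array was CT22 of the second cycle. That array alone took it past the filter, which asked for a highest value above 63.9, since its next highest value was 43.2. Night and day, which separated the brighter probe set, overlapped here, at 15.0 to 74.9 by night and 14.4 to 43.2 by day. Its fitted peak over trough was 1.93-fold with a 95% interval up to 4.81-fold, and arrays of 1 circadian time differed by a pooled SD of 0.65 on the log2 scale, against 0.14 for the brighter probe set. On these arrays the rhythm of fbxo25 thus rests on 1 of its 2 probe sets, and which transcripts each of them detects is not given in the sources used here. Beyond the arrays, the study also listed fbxo25 as circadian by RNA-seq of other fish. It gave qRT-PCR in adult pineal glands as the validation for this gene. Neither fbxl3a nor cul1b is named in the study's list of genes detected by both methods. The study also has a separate list for each method, and whether these genes are in those is not given here.

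The F-box gene fbxl3a (Dr.16658.1.S1_at) had its highest levels in the late subjective day. Its intensities were 1187, 751, 722, 1051, 1878 and 1944 from CT14 to CT10 of the first cycle. In the second cycle they were 1470, 1139, 995, 1133, 1629 and 1768. The 6 arrays of CT6 to CT14 lay between 1187 and 1944 and the other 6 between 722 and 1139, in a split made after the values were seen. That they do not overlap follows largely from the choice of this gene for its rhythm. The distance was larger in the first cycle, where the mean ratio of these sets was 1.97, than in the second, where it was 1.49. The fitted peak over trough was 2.31-fold (95% interval 1.74 to 3.08), and the peak fell at CT 8.81 ± 0.60 h (SE, n = 12 arrays).

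The cullin gene cul1b (Dr.7761.1.A1_at) followed nearly the same course as fbxl3a. Its intensities were 415, 262, 269, 249, 512 and 518 from CT14 to CT10 of the first cycle. The second cycle gave 412, 277, 154, 265, 411 and 427. The 6 arrays of CT6 to CT14 held 411 to 518 and the other 6 held 154 to 277, without overlap. This split too was made after the values were seen. For each chosen gene the split lies around its own peak, so the lack of overlap follows largely from the choice and is a description. How many of all probe sets separate in this way was not counted. The mean ratio of the sets of cul1b was 1.85 and 1.86 in the first and the second cycle. The value of 154 at CT22 of the second cycle was the lowest by a wide margin. With it the fitted peak over trough was 2.45-fold (95% interval 1.77 to 3.38), or 1.29 on the log2 scale, and without that array the log2 value was 1.10. The peak stood at CT 9.86 ± 0.64 h (SE, n = 12 arrays).

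**Figure D1:**
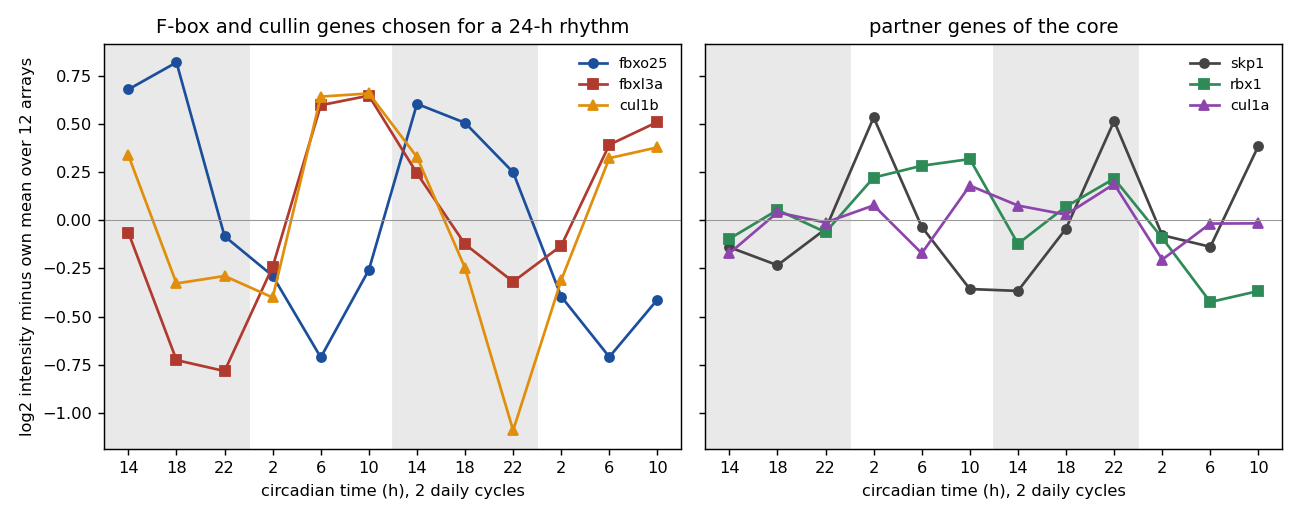
Log2 normalized intensity minus the probe set's own mean over 12 arrays (vertical axis) at each circadian time of 2 daily cycles (horizontal axis, h), with 1 point per array and grey bands over the subjective night. On the left fbxo25, brighter probe set, is high from CT14 to CT22 while fbxl3a and cul1b are high from CT6 to CT14; on the right skp1, rbx1 and cul1a show no course that returns in both cycles.

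The core partners were measured on the same arrays without such a course. The transcript of skp1 (Dr.14551.1.S1_at), the adaptor that every F-box protein binds, had a lowest, median and highest intensity of 553, 683 and 1031. Its 3 highest arrays were CT2 of the first cycle at 1031, CT22 of the second at 1018 and CT10 of the second at 931. At CT10 of the first cycle skp1 stood at 556, close to its lowest, so that the same circadian time held both a high and a low array. The high arrays of the second cycle are among the last 4 arrays, which had brighter hybridization controls, and their part in this was not tested. The fitted peak over trough of skp1 was 1.34-fold with a 95% interval up to 1.92-fold.

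The RING subunit gene rbx1 (Dr.667.1.S1_at) ranged from 466 to 780 around a median of 624. It was high at CT6 and CT10 of the first cycle, at 761 and 780, and lowest at the same times of the second, at 466 and 485. Its fitted fold was 1.13 with an interval up to 1.56. The first and second cycle of rbx1 ran against each other. Its low values at CT6 and CT10 of the second cycle come from the last 4 arrays. The part of these arrays in the difference was not tested.

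The second Cul1 gene, cul1a (Dr.1993.1.S1_at), had the smallest range of the 7 probe sets. Its lowest, median and highest intensities were 672, 779 and 882, a highest over lowest ratio of 1.31 against 3.36 for cul1b. The fitted fold was 1.07 with a 95% interval up to 1.36. Median centring of the arrays in place of quantile normalization raised the log2 fold of cul1a from 0.09 to 0.36. Both Cul1 genes came from the same 12 RNA pools.

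The share of the variance of a profile at a period of 24 h, called the g-factor, orders the members as the choice had it. It was 0.915 for fbxo25, 0.850 for fbxl3a and 0.832 for cul1b, which put these probe sets at rank 6, 29 and 36 of 11625. The partners had 0.252 for skp1, 0.072 for cul1a and 0.070 for rbx1, and the second fbxo25 probe set had 0.244, against a median of 0.191 over all probe sets kept. No F-box or SCF core probe set lay between cul1b at 0.832 and the F-box gene ccnf at 0.498.

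What the profiles held beside the 24-h component differed between members, and differences between the cycles appear at 48, 16 and 9.6 h. For fbxl3a, 12.7% of the variance lay at 48 h and 0.582% at 12 h. For cul1b the largest remainder was 6.86% at 9.6 h, and for fbxo25 it was 4.70% at 12 h. These 3 probe sets were chosen for a large share at 24 h, which left little for 12 h or any other period. In skp1 49.7% of the variance lay at 16 h and in rbx1 57.5% at 48 h.

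The times of the highest and lowest arrays were in part the same in both cycles. The highest array of fbxl3a and of cul1b was CT10 in both cycles, and the lowest was CT6 in both for fbxo25 and CT22 in both for fbxl3a. The highest array of fbxo25 was CT18 in the first cycle and CT14 in the second, and the lowest of cul1b was CT2 in the first and CT22 in the second. The highest over lowest ratio within a cycle was 2.89 and 2.49 for fbxo25, 2.69 and 1.78 for fbxl3a, and 2.08 and 2.77 for cul1b. The mean level of the second cycle minus the first was -0.05 for fbxo25, 0.19 for fbxl3a and -0.21 for cul1b on the log2 scale. For the partners this difference was 0.09 for skp1, -0.24 for rbx1 and 0.02 for cul1a. A steady rhythm entails a small difference between cycles, so these values are a description for the chosen genes.

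The time between the peaks was not part of the choice. The peak of fbxl3a preceded that of fbxo25 by 8.31 h (95% interval 6.89 to 9.72), and the peak of cul1b preceded it by 7.25 h (5.75 to 8.75), with the residual covariance of each pair of profiles in the error. Between cul1b and fbxl3a the peak times were 1.05 h apart, with a 95% interval from -0.89 to 2.99 h that includes 0. The order of these late-day genes is therefore not resolved at a sampling interval of 4 h, while the brighter fbxo25 probe set was separate from both. The second fbxo25 probe set, with its fitted peak at CT 23.4 ± 2.47 h (SE), was not compared. These intervals use the residuals of probe sets chosen for a close 24-h fit and may be too narrow. Over the 12 arrays, which all members share, fbxl3a and cul1b correlated with r = 0.78 and rho = 0.88, fbxo25 and fbxl3a with r = -0.52 and rho = -0.49, and fbxo25 and cul1b with r = -0.31 and rho = -0.29.

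Ratios within an array remove whatever scales a whole array, and their level, which depends on the probes, was not read. Since fbxo25, fbxl3a and cul1b were chosen for a rhythm and the partners for lacking one, the ratios of one kind to the other follow from that choice and are a description. The intervals of all ratios that hold a gene chosen for its rhythm may be too narrow and are no test of a rhythm. The ratio of cul1b to cul1a, the 2 Cul1 genes, had a fitted peak over trough of 2.53-fold (95% interval 1.67 to 3.84), with its peak at CT 9.63. Around its own mean it lay between 0.25 and 0.81 on the log2 scale on the 6 arrays of CT6 to CT14, and between -1.28 and -0.11 on the other 6. The 2 sets, split as for cul1b after its values were seen, did not overlap. The array farthest out was again CT22 of the second cycle.

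The ratio of each F-box gene to the adaptor skp1 had its peak close to that of the F-box gene. The fbxo25 to skp1 ratio had a fitted fold of 3.19 (2.04 to 4.99) with its peak at CT 16.3, and the fbxl3a to skp1 ratio a fold of 2.72 (1.76 to 4.21) with its peak at CT 9.83. The ratio of the F-box genes to each other, fbxo25 to fbxl3a, spanned the widest range, with a fitted fold of 5.03 (3.44 to 7.36). It peaked at CT 18.8 and moved from 1.55 above its log2 mean at CT18 of the first cycle to -1.31 at CT6 of the same cycle. On the deposited scale, with no further normalization, these folds were 2.47 for cul1b to cul1a, 3.05 for fbxo25 to skp1, 2.73 for fbxl3a to skp1 and 4.97 for fbxo25 to fbxl3a.

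Among the partners, chosen as constant, the fitted fold was 1.24 for skp1 to rbx1, 1.12 for cul1a to rbx1 and 1.38 for skp1 to cul1a, with upper 95% bounds of 2.05, 1.54 and 2.01. The ratio of fbxl3a to cul1b, the pair with like peak times, had a fitted fold of 1.28 with an upper bound of 1.99.

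**Figure D2:**
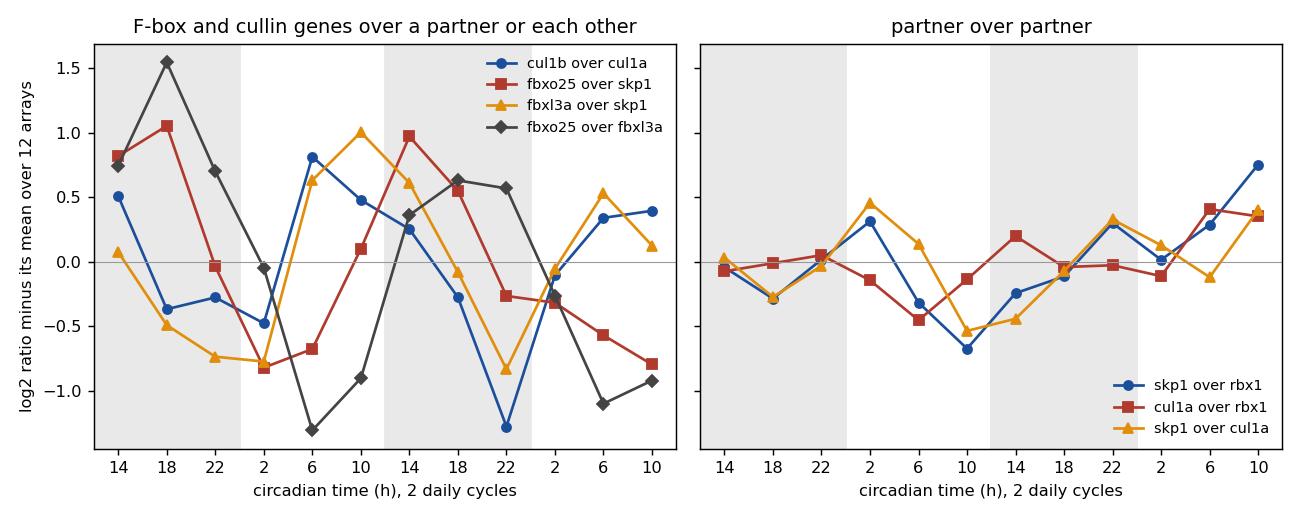
Log2 ratio of 2 probe sets on the same array minus the mean of that ratio over 12 arrays (vertical axis) by circadian time in 2 daily cycles (horizontal axis, h), with 1 point per array and grey bands over the subjective night. On the left the ratio of fbxo25 to fbxl3a lies between -1.31 and 1.55, and the ratios of a chosen gene to a partner between -1.28 and 1.05. Apart from -1.28 at CT22 of the second cycle, cul1b to cul1a lies between -0.48 and 0.81. Ratios among skp1, rbx1 and cul1a on the right lie between -0.67 and 0.75.

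Among the other F-box genes no rhythm was called. Of 39 further probe sets for 32 genes, 29 passed the filter, and 0 had an adjusted p under 0.05 in the 24-h fit of limma with Benjamini-Hochberg adjustment over all 11625 probe sets. Over all probe sets 60 were called, which is 0.516%. At an unadjusted p under 0.05 the F-box count was also 0, against 1177 probe sets or 10.1% of all. The probe sets with the largest 24-h component had been taken out as members, and the counts are not independent of that choice. Their median fitted fold was 1.28 and their median g-factor 0.122, against 1.40 and 0.191 over all probe sets.

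The other F-box genes with the lowest p were ccnf, fbxl14a, fbxl14b and fbxw11b. The gene ccnf encodes cyclin F, an F-box protein whose level follows the cell cycle in mammals; its probe set was dim, with a geometric mean of 50.6 and a fitted fold of 2.03 that did not pass the test (limma adjusted p = 0.50, n = 12 arrays). For fbxl14a the fold was 1.52 with adjusted p = 0.54, for fbxl14b 1.58 with 0.58, and for fbxw11b, a gene of the beta-TrCP family that binds phosphorylated substrates, 1.46 with 0.61. The number of arrays limits what these tests can call. When profiles with a known rhythm were simulated at the spread of the 12 arrays, with independent noise, the same fit found 13.0% of 2-fold and 72.0% of 4-fold rhythms.

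The paralog fbxl3b did not pass the filter, with a highest intensity of 30.0, so no course can be read for it. The gene fbxo32, which encodes the muscle F-box protein atrogin-1, had a fold of 1.46 (adjusted p = 0.80) and its highest value, 108, on CT6 of the second cycle. On that array the probe set of fbxo2, a gene for an F-box protein that binds glycoproteins, read 748 against at most 269 on the other 11. This is the array with the skin, bone and immune markers, and their part in the fbxo2 and fbxo32 values was not tested. The value of fbxo25 on that array was 158, as at CT6 of the first cycle, and without the array the log2 fold was 1.42 for fbxo25, 1.22 for fbxl3a and 1.30 for cul1b. Without the last 4 arrays these folds were 1.45, 1.39 and 1.23. For skp1, rbx1, cul1a and the second fbxo25 probe set the log2 folds over all arrays were 0.42, 0.17, 0.09 and 0.95. Without CT6 of the second cycle they were 0.46, 0.19, 0.11 and 1.02, and without the last 4 arrays 0.62, 0.35, 0.03 and 0.34.

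**Figure D3:**
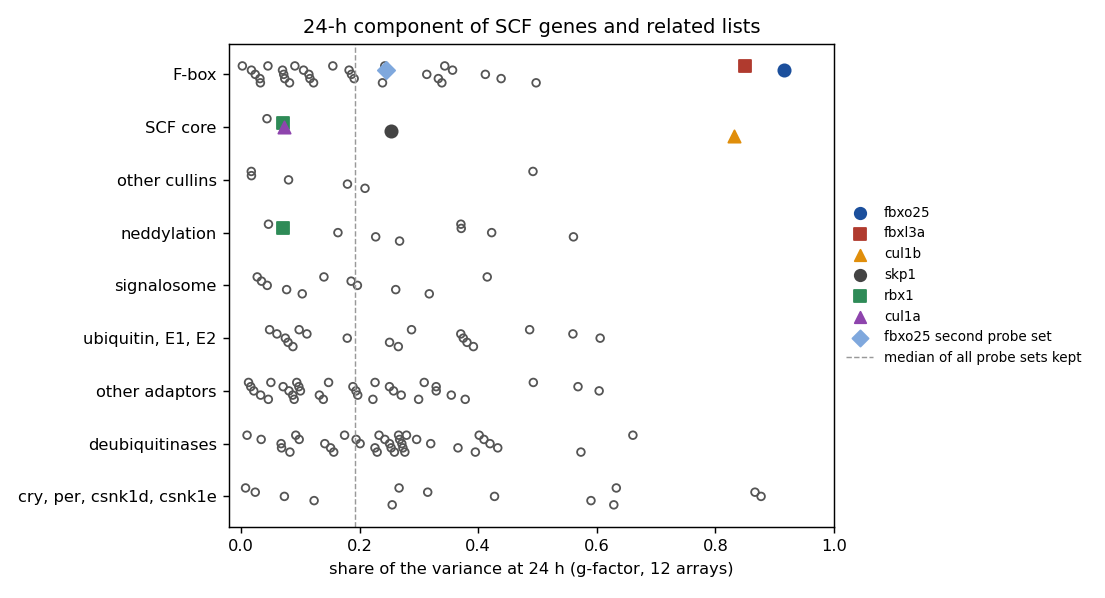
Share of the variance at 24 h over 12 arrays (horizontal axis, 0 to 1) for each probe set that passed the filter, by gene list (rows); open circles are other genes, filled symbols the members, and rbx1 stands in 2 rows because it belongs to both lists. The brighter fbxo25 probe set and those of fbxl3a and cul1b lie above 0.8, where the choice had put them, the second fbxo25 probe set lies at 0.244, and the other high points are those of csnk1db and cry2 in the last row.

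The remaining machinery around the ligase was measured by 146 probe sets for 119 genes, of which 126 passed the filter. The fit called 2 of them, both from the list of cryptochrome, per and casein kinase 1 delta and epsilon genes, against 0.516% called over all probe sets. At an unadjusted p under 0.05 there were 12, or 5 from that list and 7 of 113 from the rest, against 10.1% of all probe sets. The lists for the rest were the SCF core, other cullins, neddylation, the signalosome, ubiquitin with its E1 and E2 enzymes, adaptors of other cullins and deubiquitinases, and none of their probe sets was called. With 0.516% called over all probe sets, lists of these sizes can hold 0 calls without standing apart, here and in the counts below.

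In the SCF core the remaining gene was rnf7, which encodes a second RING subunit related to Rbx1. Its fitted fold was 1.11 (limma adjusted p = 0.94). None of the 6 probe sets of other cullins was called, and the lowest p among them was that of cul4b, the scaffold of CRL4 ligases, with a fold of 1.41 and adjusted p = 0.54. A second, dim cul4b probe set had a fold of 1.21.

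Genes that attach NEDD8 to cullins or exchange their substrate receptors had 8 probe sets tested, with 0 called and fitted folds from 1.13 to 4.49. The upper end was the dim probe set of senp8, which encodes the NEDD8 protease, at a geometric mean of 21.9 and an adjusted p of 0.56. The exchange factor cand1 had a fold of 1.20, and dcun1d5 and dcun1d2b, genes of the DCN family that aids NEDD8 attachment, had 1.58 and 1.39. Of the COP9 signalosome 11 probe sets were tested, with a median fold of 1.21 and 0 called.

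The E2 gene cdc34b encodes an enzyme that passes ubiquitin to substrates of SCF ligases in yeast and mammals. This gene had the second lowest p of its list, which held 18 tested probe sets and 0 called. It peaked at CT 8.29 ± 1.18 h (SE, n = 12 arrays) with a fold of 1.61 and did not pass the test (limma adjusted p = 0.40). The gene of the ubiquitin-activating enzyme, uba1, had a fold of 1.79 and adjusted p = 0.32. Its highest arrays were CT2 of the first cycle at 2554 and CT22 of the second at 2398, the same arrays on which skp1 was highest.

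Adaptors of other cullins had 33 probe sets tested and 0 called, with klhl17, a BTB and kelch gene, at the lowest p (fold 2.02, limma adjusted p = 0.34). Among the deubiquitinases 36 were tested and 0 called. One usp37 probe set had a fitted fold of 5.13 with adjusted p = 0.12, but the other 3 usp37 probe sets had folds of 1.16 to 1.51. These probe sets of 1 gene disagree, and the gene was not read further.

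The cryptochromes are repressors of the circadian clock, and 2 probe sets of the array are annotated to cry2. One, Dr.6618.1.A1_at, was called, its fold being 5.73 and its peak at CT 20.2 ± 0.47 h (SE, n = 12 arrays, limma adjusted p = 0.0064). The other, Dr.10441.1.S1_at, peaked at CT 19.9 with a fold of 2.29 and was not called (adjusted p = 0.23). Both were highest at CT18 of each cycle, at 505 and 412 for the first probe set and at 474 and 496 for the second. A further probe set, Dr.2518.1.A1_at, has no gene in the annotation used here and is named cry2a in a table of the study. The annotation and the study name the cryptochromes differently, so cry2 and cry2a are not read as related by name. Probe set Dr.2518.1.A1_at was singled out after its values were seen. Its fitted peak stood at CT 8.75 ± 0.46 h with a fold of 5.59, and its highest array was CT10 in both cycles, at 6371 and 6134. For cry2a the study lists a peak at CT14 by RNA-seq of the pineal gland. The cause of this difference was not tested.

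Set against the brighter fbxo25 probe set, the called cry2 probe set came 3.11 h later (95% interval 1.67 to 4.56) and the other 2.83 h later (0.40 to 5.25). Probe set cry2a came 8.36 h earlier (6.96 to 9.76). The peak of fbxl3a fell 0.06 h after that of cry2a (-1.41 to 1.52), and the peak of cul1b 1.11 h after it (-0.72 to 2.93). The called cry2 probe set came 11.4 h after fbxl3a (9.60 to 13.2) and 10.4 h after cul1b (8.58 to 12.2). Since the members were chosen for a close 24-h fit, these intervals may be too narrow.

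The gene csnk1db encodes a casein kinase 1 delta, a kinase that phosphorylates PER proteins before their ubiquitination. It was called, its fold being 2.00 and its peak at CT 21.7 ± 0.63 h (SE, n = 12 arrays, limma adjusted p = 0.040). That call was kept in 2 of the 12 fits that each left out 1 array, those without CT6 or CT10 of the second cycle, while the cry2 call was kept in all 12. The paralog csnk1da, read by the brighter of its 2 probe sets, peaked at CT 21.9 with a fold of 1.48 (adjusted p = 0.53), and the 2 probe sets of per2 had folds of 2.01 and 1.49 (adjusted p = 0.26 and 0.88).

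**Figure D4:**
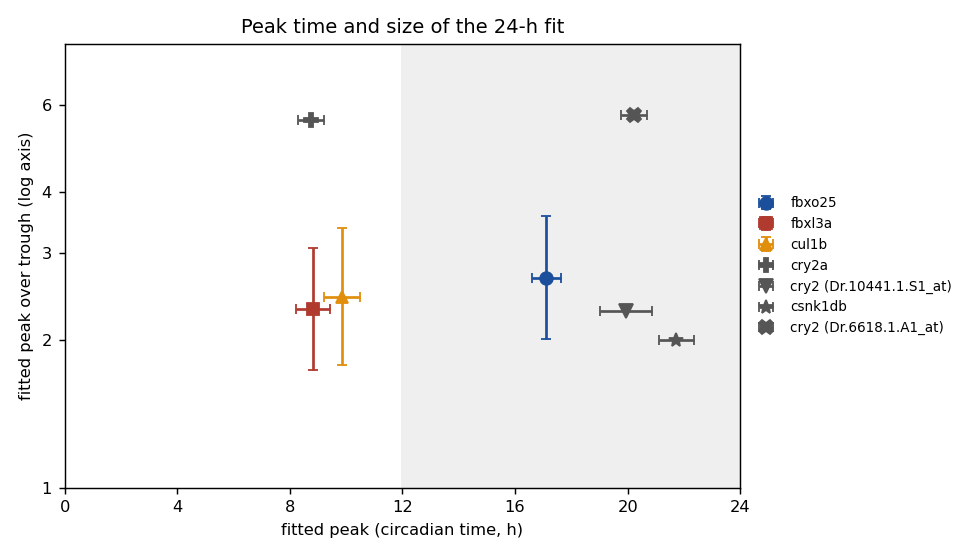
Fitted peak over trough (vertical log axis) against the fitted peak time (horizontal axis, circadian time in h) for fbxo25, fbxl3a, cul1b, cry2a, both cry2 probe sets and csnk1db; horizontal bars are the SE of the peak time, vertical bars of the members the 95% interval of the fold, and grey marks the subjective night. Members fbxl3a and cul1b lie at CT 8.81 and CT 9.86, and the brighter fbxo25 probe set lies at CT 17.1 ahead of cry2 and csnk1db.

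No probe set was called for a difference in mean level between the second and the first cycle (0% of 11625, limma with Benjamini-Hochberg adjustment), with 829 or 7.13% at an unadjusted p under 0.05. Among the F-box probe sets other than the members 1 of 29 had such an unadjusted p, and among the other lists 4 of 126. A rhythm that differed between the cycles was also called for 0%, with 757 probe sets at an unadjusted p under 0.05, of which 2 were F-box probe sets and 5 belonged to the other lists.

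The genes whose profiles were most like that of fbxo25 over the 12 arrays, by Pearson's r among probe sets with 1 gene symbol, were exosc2 (r = 0.92), klf9 (0.85), rgcc (0.85), cenpe (0.83) and tcp11l2 (0.82). Their fitted peaks ran from CT 15.8 to CT 17.7. The gene klf9 encodes a Krüppel-like transcription factor and had a fitted fold of 7.56, and exosc2, a subunit gene of the RNA exosome, had 1.61.

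For fbxl3a the most alike were nfil3-5 (r = 0.93), coq8aa (0.91), bmal1b (0.87), rimkla (0.87) and ypel3 (0.86), with peaks from CT 7.11 to CT 9.24. Among these are 2 genes of the clock: bmal1b, a partner of CLOCK, had a fold of 3.03, and nfil3-5, of the family of E4BP4 repressors, had 33.9, the highest fold of all probe sets kept. For cul1b they were ap1g1 (r = 0.93), mbd3a (0.89), rgmd (0.89), eif4a1a (0.87) and rnaseka (0.85), with peaks from CT 9.29 to CT 11.8. The lists of fbxl3a and cul1b had no gene in common, but lists of 5 were unstable and little can be read from that. Spearman's rho kept 3, 3 and 0 genes for fbxo25, fbxl3a and cul1b, and leaving out CT6 of the second cycle kept 1, 3 and 2. The close peak times of the listed genes follow from picking them by correlation. All these correlations are over arrays that share their pools and hybridizations and are given as a description.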

How the data were processed

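The values are intensities as deposited by the authors, linear and scaled array by array, for 12 Affymetrix arrays; GCOS and MAS5 are named in the submitters' processing notes, without versions. Detection calls were not used here, so it is unknown which values are background, and the number of arrays limits the precision. After 115 control probe sets were left out, the log2 of each intensity was quantile-normalized (limma 3.58.1, R 4.3.3). A probe set was left out if its maximum over the arrays fell in the lowest 25% of maxima. The model of limma had cosine and sine terms of 24 h with eBayes and a variance trend, and the F test was adjusted by Benjamini-Hochberg over 11625 probe sets at 0.05. The g-factor is the share of variance that this fit explains. Intervals of ratios and of peak differences came from least squares with 9 residual degrees of freedom. Intensities quoted are quantile-normalized and are not compared between probe sets.

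The platform annotation gave 1 gene symbol to 10795 probe sets, several to 135 and none to 4572. The members and all gene lists were chosen with earlier results of these data known. Named are all probe sets of the 6 genes, paralogs of the members, and the 5 probe sets most like each rhythmic member. From the lists, members past the test and part of those with the lowest p are named. That rule was not kept throughout: cand1 and csnk1da are named, but not nae1 and cry1b, whose p was lower. No signalosome gene is named. The genes fbxo2 and cry2a were named after their values were seen. Replicate 1 is the first daily cycle and replicate 2 the second, pools are not stated to be otherwise independent, and p-values measure the spread between these arrays. Differences between the cycles correlated with r from -0.30 to 0.22 over 15 pairs of circadian times, 5 of them above 0.1. Fits were tested on simulated data: the 2-fold and 4-fold rhythms had a median peak error of 1.16 h and 0.43 h, and 92.4% of calls were true. The simulated noise was independent between probe sets and arrays, so effects shared by the probe sets of an array were left out, and these shares may not hold for the real arrays. Alternatives were other normalizations, filters and an offset, each array or the last 4 left out, the daily cycle as a block, a linear trend, circadian time as a factor, no variance trend and a false discovery rate of 0.10. Sequences were not used here.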

Additional observations from a re-analysis of the deposited data

How the results depend on the processing

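No F-box probe set other than the members was called under any alternative run. The count of called probe sets in the other lists, 2, became 1 with median centring, with a linear trend and without the variance trend, and 0 with circadian time as a factor; leaving out single arrays gave 1 to 2. Over all probe sets the 60 calls became 29 with median centring, 27 with a linear trend, 12 with time as a factor, 17 without the variance trend, 103 at a false discovery rate of 0.10 and 133 without the last 4 arrays; single arrays left out gave 14 to 103. With the daily cycle as a replicate block the counts were 0, 2 and 53, and the block changed no other call; the numbers name days, and 5 of 15 pairs of circadian times had cycle differences correlated above 0.1. The calls of a cycle difference were 4 without the last 4 arrays and 0 to 4 without single arrays, with 4 when CT22 of the second cycle was left out; the difference of rhythm could not be fitted without the last 4 arrays.

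The log2 fold of fbxo25, 1.42, was 1.60 with median centring, 1.26 with an offset of 32 and 0.95 in the other probe set. The peak difference to fbxo25 became -7.29 h for fbxl3a and -6.30 h for cul1b with median centring, where cul1a had a log2 fold of 0.36. Deposited array medians spanned 0.43 on the log2 scale. Single arrays left out gave log2 folds of 1.36 to 1.50 for fbxo25, 1.12 to 1.33 for fbxl3a and 1.10 to 1.45 for cul1b. Of the 5 genes most like each member, Spearman's rho kept 3 for fbxo25, 3 for fbxl3a and 0 for cul1b, and leaving out CT6 of the second cycle kept 1, 3 and 2. The cause was not tested for any of these changes. In all, 163 of 189 alternatives other than single arrays and 278 of 300 with an array left out stayed within a set range. That range was 1.5 times a count and, for a fold or ratio, 1 SD within circadian times. For a peak time or peak difference it was 1 SE, and for a g-factor 0.1. Part of the 163 could not move, since the filters do not enter the folds, peak times, g-factors and ratios of the members. The daily cycle as a block left the values of the members as they were, and the g-factor also took no linear trend.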
